A study of Rattus norvegicus with 3 samples.

Results

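The peaks described here are all 22147 peaks of Dor that lie on rat chromosomes 10 and 12, of 291218 peaks over the whole series. They were chosen by chromosome alone, and the pair of chromosomes was selected on the density of the same peaks, so density is given as a description with no test. Dor, the product of Tp53inp2, was mapped by CUT&Tag, in which an antibody bound to chromatin brings a transposase that cuts the DNA beside it. The series held 1 library per stage of the oligodendrocyte lineage: the precursor (OPC), the immature cell labelled iOL or D1, and the mature cell labelled mOL or D3. All 3 came from primary rat cultures in which precursors were shaken off mixed glia after growth in serum and B104 conditioned medium. Precursors were kept in Sato medium with 10 ng/ml of PDGF-AA plus 20 ng/ml of bFGF, and differentiation was in Sato medium with 15 nM of the thyroid hormone T3 plus 10 ng/ml of CNTF. The labels mark iOL and mOL as treated with T3. The number of animals and the purity of the cultures are not given in the sources used. A single library per stage gives no replicate check, and a difference between the lists is one between libraries.

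Dor is known as a protein of the autophagosome that also shuttles into the nucleus, where it acts as a coactivator of nuclear receptors, the thyroid hormone receptor among them. Thyroid hormone promotes the differentiation of precursors into oligodendrocytes, the cells that wrap axons in myelin. A CUT&Tag peak marks where the antibody brought the transposase to chromatin, and does not show direct contact of the protein with DNA. Transposases also cut open chromatin without an antibody, and a library with an untargeted antibody was not analysed here.

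Chromosome 10 carried 3508 OPC, 3063 iOL and 9120 mOL peaks, and chromosome 12 carried 1418, 1195 and 3843. One further mOL peak lay on an unplaced scaffold of chromosome 10 and was not a member. Positions are on build rn5, counted from 1; the deposited lists count starts from 0. The other 18 assembled autosomes together held 57337, 53018 and 147179 peaks in the 3 libraries. Chromosome length was taken as the end of the last peak in any list, which gave 110.698 Mb for chromosome 10, the 13th longest autosome, and 54.445 Mb for chromosome 12, the shortest of the 20. Strength below is the number of fragments stacked at a peak's summit divided by the genome background, the mean fragment coverage that the peak caller uses as its floor. The OPC background was 1.47 fragments per base, that of mOL 1.83 and that of iOL only 0.540. The weakest peak that could be called therefore had a strength of 6.11 (OPC), 5.47 (mOL) or 11.1 (iOL), so the iOL list holds no peak as weak as many of the others.

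The density of peaks set chromosome 10 apart in all 3 libraries and chromosome 12 in 2 of them. Chromosome 10 had 31.7 OPC, 27.7 iOL and 82.4 mOL peaks per Mb, the highest of the 20 autosomes each time. Chromosome 12 had 26.0 OPC and 70.6 mOL peaks per Mb, the second highest. The 18 other autosomes reached at most 25.3 in OPC, on chromosome 5, and 67.2 in mOL, on chromosome 8. In iOL, chromosome 12 ranked only 8 of 20, at 21.9 peaks per Mb against 20.5 on the other autosomes pooled, so the name of a dense chromosome did not hold for it there. That rank depended on how length was counted. Chromosome 12 had no peak of any library in 73 of its 544 windows of 100 kb, a larger share than chromosome 10, with 25 of 1106. Per Mb of windows with at least 1 peak in some library, chromosome 12 had 25.4 iOL peaks and ranked 3, after chromosome 10 at 28.3 and chromosome 19 at 25.7.

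**Figure D1:**
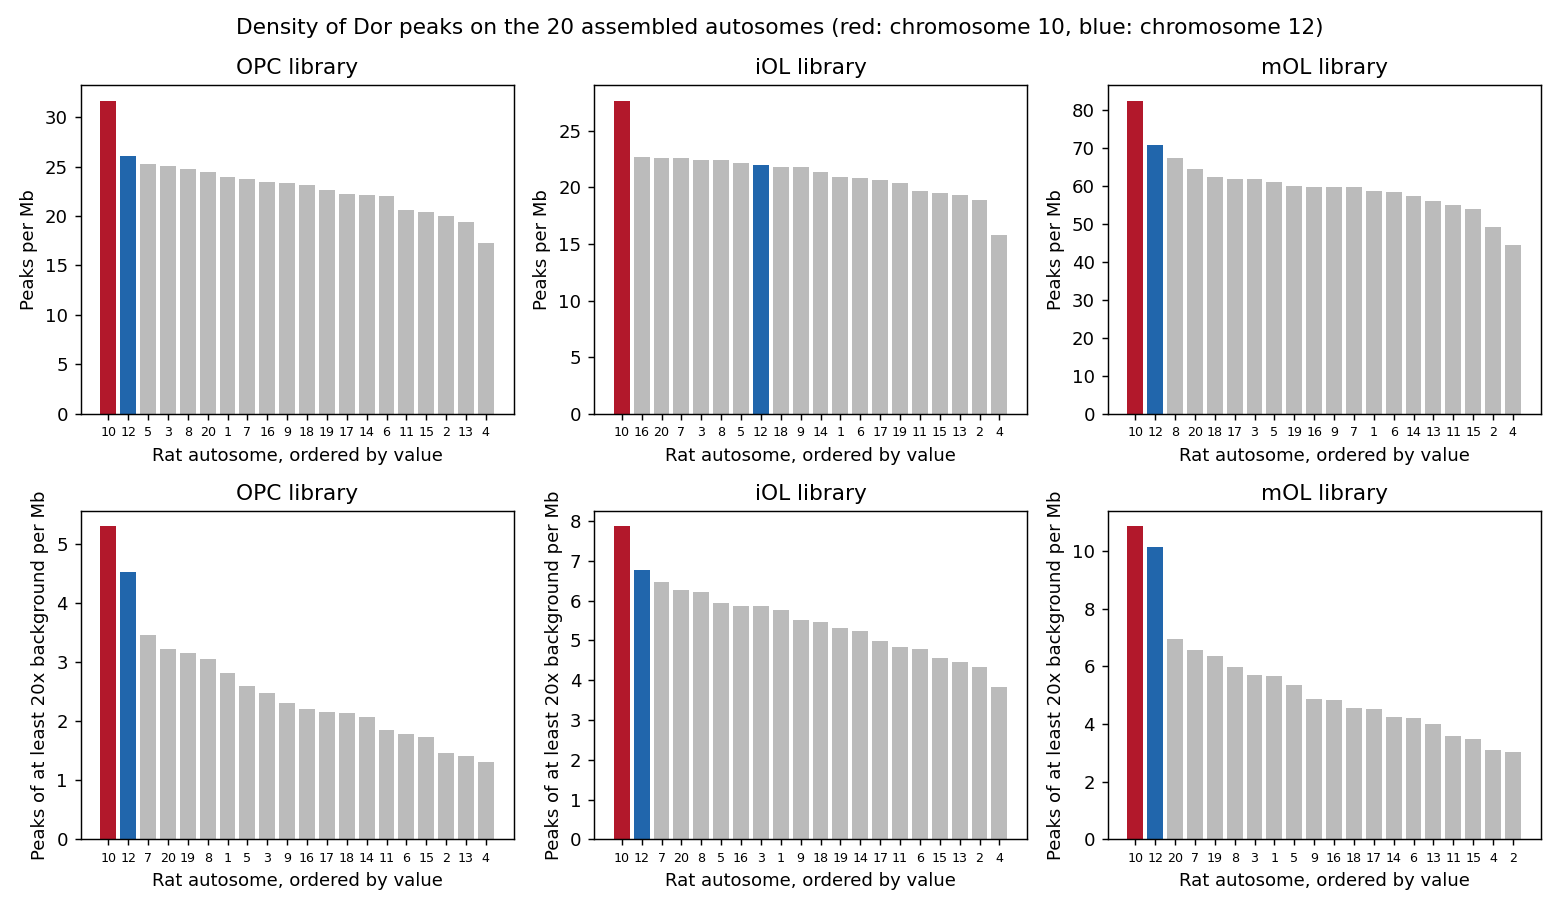
Peaks per Mb (upper panels) and peaks of a strength of at least 20 per Mb (lower panels) on each of the 20 assembled autosomes, 1 bar per autosome in falling order, with chromosome 10 in red and chromosome 12 in blue. Chromosome 10 stands first in every panel, and chromosome 12 stands second except among all iOL peaks, where it ranks 8.

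Strong peaks were more concentrated on both chromosomes than peaks in general, by far in OPC and mOL and modestly in iOL. In iOL their density over the other autosomes was 1.51-fold and 1.29-fold, against 1.35-fold and 1.07-fold for all peaks. The same strength stands for fewer fragments in iOL, whose background was 0.540 against 1.47 (OPC) and 1.83 (mOL). Chromosome 10 held 587 OPC, 871 iOL and 1202 mOL peaks of a strength of at least 20, which came to 5.30, 7.87 and 10.9 per Mb. On chromosome 12 there were 247, 368 and 552 such peaks, or 4.54, 6.76 and 10.1 per Mb. The other autosomes pooled had 2.21, 5.22 and 4.68 per Mb. At this strength the chromosomes ranked first and second of 20 in every library, iOL included. In contrast, the density of peaks below a strength of 20 put chromosome 12 at rank 5 (OPC), 14 (iOL) and 3 (mOL).

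The excess over the other autosomes grew with strength in a graded way. For OPC peaks on chromosome 10, density over the other autosomes was 1.14-fold below a strength of 8, 1.28-fold from 8 to 12, 1.77-fold from 12 to 20, 2.30-fold from 20 to 50 and 3.06-fold from 50 up. For mOL on the same chromosome the series was 1.11, 1.42, 1.81, 2.31 and 2.37. For iOL, whose weakest class is empty, it was 1.29, 1.29, 1.48 and 2.09. Chromosome 12 began below the other autosomes: its weakest OPC peaks were at 0.82-fold, its weakest mOL peaks at 0.93-fold and its iOL peaks from 8 to 12 at 0.86-fold. Its strongest class reached 2.82-fold in OPC, 1.59-fold in iOL and 2.03-fold in mOL, the last a little under the 2.19-fold of mOL peaks from 20 to 50. The strongest classes were small: chromosome 12 had 43 OPC, 21 iOL and 73 mOL peaks in them, and chromosome 10 had 95, 56 and 173.

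**Figure D2:**
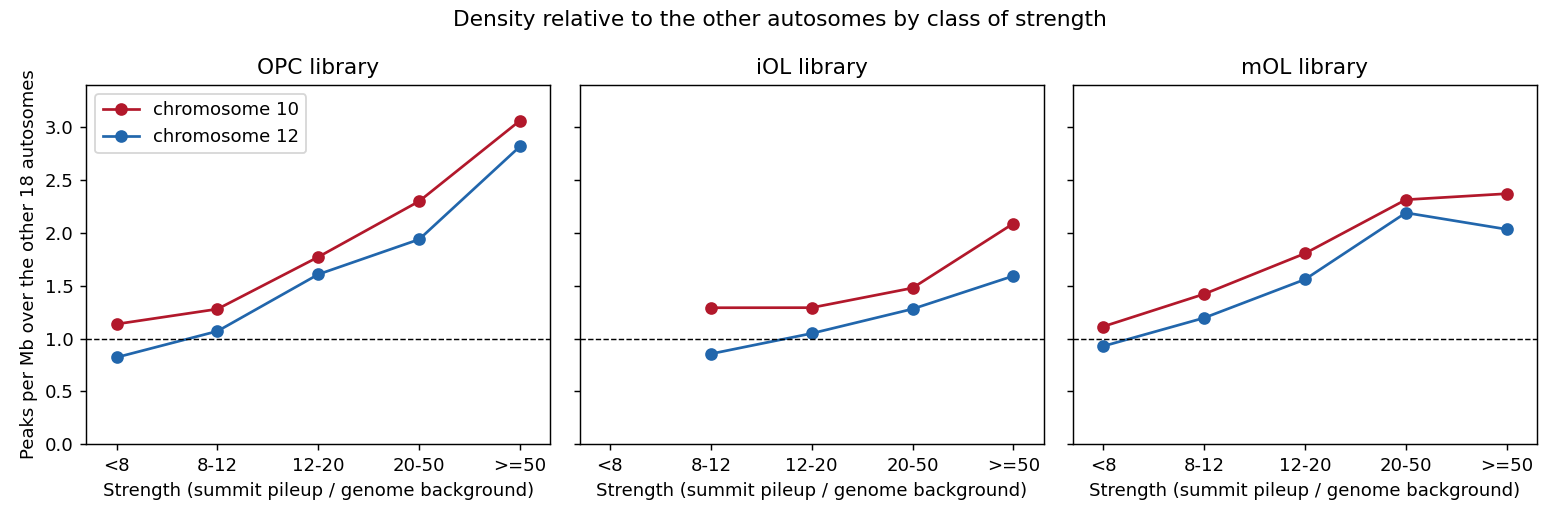
Peaks per Mb on chromosomes 10 (red) and 12 (blue) divided by the same on the other 18 autosomes (dashed line at 1), in classes of strength, 1 panel per library. The values rise with strength except for a level first step of iOL on chromosome 10, at 1.29, and a fall at the last step of mOL on chromosome 12, from 2.19 to 2.03, and the weakest class of chromosome 12 lies below 1 in each library.

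The whole distribution of strength was shifted in OPC and mOL and hardly at its centre in iOL. Median strength was 10.2 on both chromosomes in OPC against 8.82 on the other autosomes, and 9.84 on chromosome 10 and 10.4 on chromosome 12 in mOL against 8.75. In iOL the median was 14.8 everywhere, a summit of 8 fragments, which is close to the 6 needed for a call. The 90th percentile moved more, to 27.1 and 27.8 in OPC against 19.7, to 29.6 on both chromosomes in iOL against 25.9, and to 23.0 and 23.5 in mOL against 18.04. In iOL chromosome 20 also reached 29.6. The other 18 autosomes reached at most 25.1 in OPC and 20.8 in mOL, both on chromosome 7. The authors' fold, which divides by the local and not the genome background, differed less: its median on chromosome 12 was 5.66 in OPC against 5.25 elsewhere and 5.31 in mOL against 5.30.

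The scales differ in the background recovered for each peak, which was the genome's or a higher local one. On chromosome 10, 52.7% of OPC, 49.5% of iOL and 60.4% of mOL peaks had a local background above that of the genome. On chromosome 12 the shares were 56.7% (exact 95% interval 54.1 to 59.3), 52.4% (49.5 to 55.2) and 63.4% (61.9 to 65.0), the highest of the 20 autosomes in each library. On the other autosomes they were 36.5%, 39.6% and 43.3%. Peaks with a raised background were 2.06 (OPC), 1.68 (iOL) and 2.01 (mOL) times as dense on chromosome 10 as on the other autosomes. On chromosome 12 they were 1.82, 1.41 and 1.81 times as dense.

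Peaks that stood on the plain genome background gave another order. Their density on chromosome 12 was 11.3 per Mb in OPC, 10.5 in iOL and 25.8 in mOL, or 0.80, 0.84 and 0.80 times that of the other autosomes. It ranked 20, 19 and 20 of the 20 autosomes. On chromosome 10 they were 1.06, 1.13 and 1.01 times as dense as elsewhere, at ranks 3, 1 and 12. So the excess of chromosome 12 lay entirely, and that of chromosome 10 mostly, in peaks whose recovered local background was above that of the genome. The sources used do not say how the local background was set or whether a control library entered it. The fragments of a peak can themselves raise its local background, and their part in these shares was not tested.

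**Figure D3:**
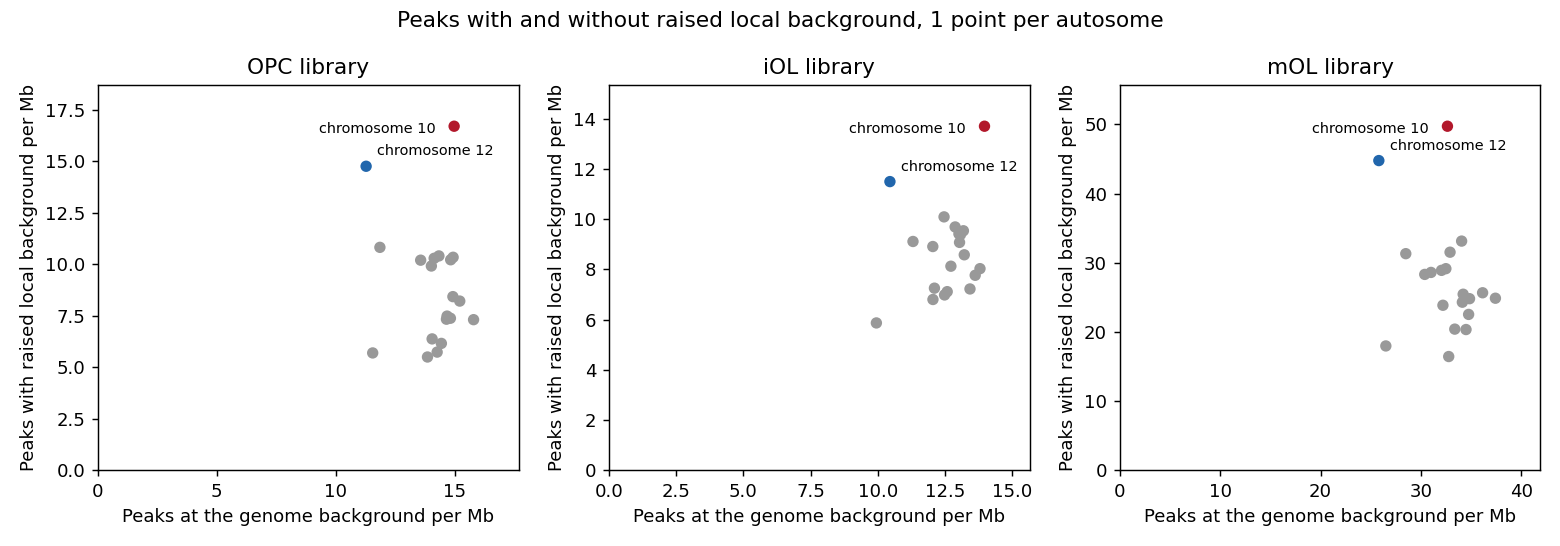
Density of peaks with a raised local background (vertical axis, peaks per Mb) against that of peaks at the genome background (horizontal axis, peaks per Mb), 1 point per autosome and 1 panel per library. Chromosomes 10 (red) and 12 (blue) lie above all others in each panel, and chromosome 12 is the leftmost point or next to it, at 11.3, 10.5 and 25.8 per Mb.

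Peaks on both chromosomes were of ordinary width at the median and broader at the upper end. Median width was 401.5 bases on chromosome 10 and 401 on chromosome 12 in OPC against 397 on the other autosomes. It was 386 on both in iOL against 388, and 405 and 407 in mOL against 401. The 90th percentile was 782 and 768 bases in OPC against 682, and 763 and 762.8 in mOL against 711, the first and second highest of the 20 autosomes in both libraries. In iOL it was 498 and 536.4 against 493. Peaks of at least 1000 bases made up 3.65% of OPC peaks on chromosome 10 (exact 95% interval 3.05 to 4.32) and 2.89% on chromosome 12 (2.08 to 3.90), against 2.42% elsewhere. In mOL they made up 3.45% (3.09 to 3.85) and 3.93% (3.34 to 4.59) against 2.79%. Only 21 and 9 iOL peaks were that wide.

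Stronger peaks were wider, on these chromosomes as elsewhere. OPC peaks on chromosome 10 had a median width of 378 bases below a strength of 8 and 891 from 50 up, against 381 and 862 on the other autosomes. The same classes of chromosome 12 had 375 and 790 bases. The widest peak of chromosome 12 was an OPC peak of 2301 bases at chr12:48658471-48660771, the widest OPC peak on any of the 20 autosomes. Its strength was 85.5, and an iOL peak of 599 bases at a strength of 72.2 and a mOL peak of 1452 bases at 35.5 overlapped it. The widest on chromosome 10 was a mOL peak of 2167 bases at chr10:83475081-83477247, of a strength of 34.4 in mOL and 73.3 in OPC.

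Neighbouring peaks lay closer together on both chromosomes. The median distance between neighbouring summits was 17.9 kb on chromosome 10 and 18.5 kb on chromosome 12 in OPC, against 24.0 kb on the other autosomes. It was 22.0 and 22.7 kb in iOL against 27.6 kb, and 8.16 and 8.11 kb in mOL against 9.59 kb. These were the shortest medians of the 20 autosomes in every library, chromosome 12 in iOL included. Spacing follows in part from density and is no separate finding. Strong peaks were closer still relative to elsewhere: the median distance between neighbouring mOL peaks of a strength of at least 20 was 29.5 and 29.8 kb against 52.7 kb.

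The 2 chromosomes differed in how evenly the peaks were laid out. In windows of 100 kb, 10.7% of those on chromosome 10 held no OPC peak, 11.4% no iOL peak and 2.62% no mOL peak, the lowest shares of the 20 autosomes. On chromosome 12 the shares were 27.4%, 28.5% and 15.3%, against 22.6%, 22.1% and 12.1% on the other autosomes. The variance of the mOL count per window divided by its mean was 1.87 on chromosome 10, the lowest of the 20, and 2.98 on chromosome 12, the third highest. Much of that came from stretches with no peak in any library: without windows empty in all 3 lists the ratio was 1.68 on chromosome 10, still the lowest, and 1.89 on chromosome 12, at rank 12. In OPC chromosome 12 stayed at rank 1 by this measure, at 2.39 over all windows and 1.99 without the empty ones.

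The longest stretch without any peak on chromosome 12 ran over 23 windows, chr12:1500001-3800000, and was empty in all 3 libraries. On chromosome 10 the longest such run was 300 kb, at chr10:10900001-11200000. The longest distance between mOL summits on chromosome 10 was 397 kb, and no other autosome had a maximum below 680 kb, that of chromosome 18. One long gap appeared in a single list: between chr10:59647282 and 60694760 the OPC library had no peak over 1047 kb, while 9 iOL and 18 mOL peaks lay inside. Whether empty stretches hold unassembled or repeated sequence was not tested, since the rn5 genome sequence was not used here.

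Along chromosome 10 the counts per 1 Mb window ran from 4 to 59 in OPC, from 6 to 57 in iOL and from 24 to 141 in mOL, over 110 windows. The OPC count was above the mean of the other autosomes, 22.2, in 79 windows (71.8%), the iOL count above 20.6 in 81 (73.6%), and the mOL count above 57.1 in 87 (79.1%). Of the windows of the other autosomes themselves, 47.4%, 52.7% and 49.1% were above these marks. This held on chromosome 12 for 30 (55.6%), 29 (53.7%) and 36 (66.7%) of 54 windows, so in iOL the share was close to that elsewhere. The counts there ran from 0 to 63, 0 to 45 and 0 to 127. Its lower quartile, 13.25 peaks in OPC and 12.25 in iOL, lay under that of the other autosomes, 15 and 16, and its upper quartile, 38.5 and 33, lay over theirs, 29 and 26. In mOL both quartiles of chromosome 12 lay higher, at 46.5 and 98.75 against 38 and 78.

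**Figure D4:**
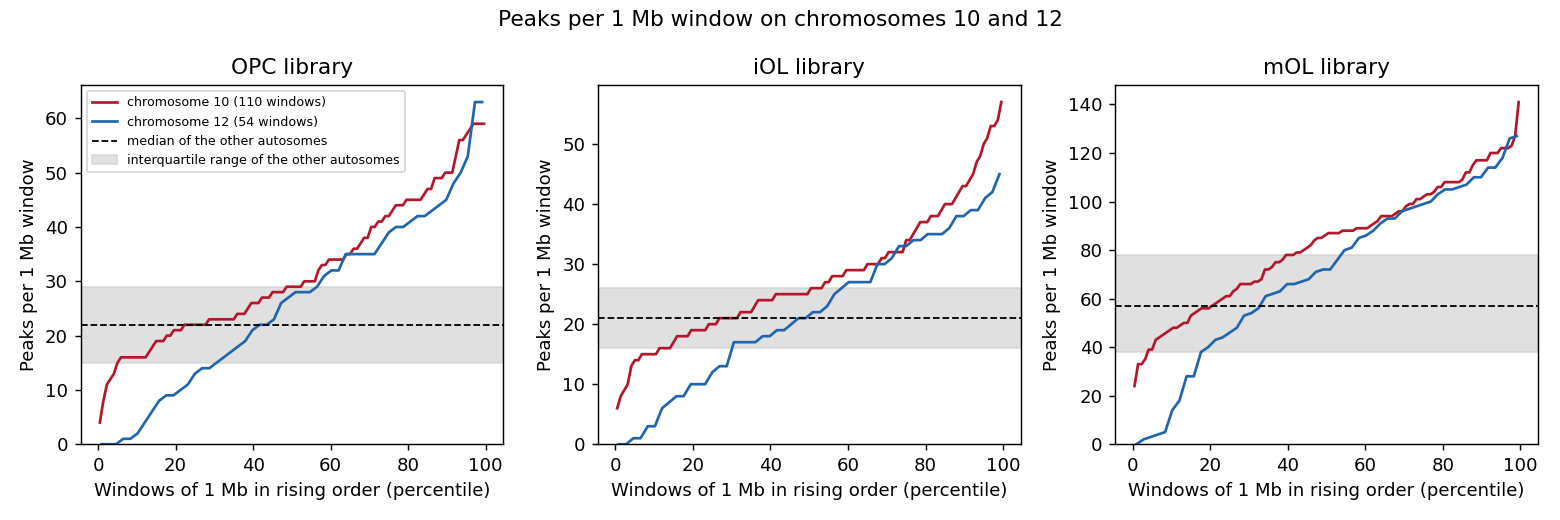
Peaks in each 1 Mb window (vertical axis) with windows in rising order (horizontal axis, percentile), for the 110 windows of chromosome 10 (red) and the 54 of chromosome 12 (blue), 1 panel per library, with the median (dashed) and interquartile range (grey) of the other autosomes. The chromosome 12 line starts at 0 and ends near the chromosome 10 line in OPC and mOL, at 63 and 127 peaks, while in iOL it ends lower, at 45 against 57.

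The end of chromosome 10 was its richest part. The 10 Mb from 100000001 to 110000000 held 433 OPC, 375 iOL and 989 mOL peaks, the most of any 10 Mb block of the chromosome in each library. Of these, 99, 132 and 222 had a strength of at least 20. The poorest block, from 20000001 to 30000000, held 201, 215 and 574 peaks, of which 6, 45 and 12 were that strong. The blocks thus differed 2.15-fold in all OPC peaks and 16.5-fold in strong ones, and 1.72-fold and 18.5-fold in mOL. In iOL they differed 1.74-fold and 2.93-fold.

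Single windows of chromosome 10 repeated across the libraries. Window chr10:14000001-15000000 held 59 OPC, 57 iOL and 123 mOL peaks, the most on the chromosome in iOL. Its OPC count was also the highest, equalled at chr10:74000001-75000000, chr10:88000001-89000000 and chr10:105000001-106000000. Window chr10:108000001-109000000 held 57, 54 and 141, the most in mOL. By strong peaks the leading window in all 3 libraries was the next one, chr10:109000001-110000000, with 30 OPC, 29 iOL and 43 mOL peaks of a strength of at least 20 among 56, 53 and 120. The poorest windows were chr10:60000001-61000000 in OPC, with 4 peaks, chr10:44000001-45000000 in iOL, with 6, and the first Mb of the chromosome in mOL, with 24.

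The first 10 Mb of chromosome 12 were poor, with 117 OPC, 117 iOL and 344 mOL peaks, and the block from 40000001 to 50000000 was rich, with 373, 296 and 949. Window chr12:39000001-40000000 held 63 OPC, 45 iOL and 127 mOL peaks, the most on the chromosome in each library, with an equal OPC count at chr12:41000001-42000000. A sharp step preceded it, chosen for mention after its values were seen. Window chr12:37000001-38000000 held 1 OPC, 1 iOL and 5 mOL peaks, none of a strength of at least 20. The adjoining window chr12:38000001-39000000 held 53, 35 and 126, of which 17, 16 and 51 were that strong. Window chr12:38000001-39000000 had the most strong OPC and mOL peaks on the chromosome.

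At 100 kb the richest windows of chromosome 10 differed between the libraries. The most OPC peaks in a window were 13, at chr10:5800001-5900000, where there were 4 iOL and 16 mOL peaks, and at chr10:109000001-109100000, with 7 and 13. The most mOL peaks were 19, at chr10:85500001-85600000, with 5 OPC and 3 iOL peaks. On chromosome 12, window chr12:38700001-38800000 held 13 OPC, 3 iOL and 18 mOL peaks. It was the richest in OPC and one of 3 richest in mOL, with chr12:31900001-32000000 and chr12:49500001-49600000, and 13 of the mOL peaks were of a strength of at least 20. The next window, chr12:38800001-38900000, held the most iOL peaks of chromosome 12, 9, beside 9 OPC and 11 mOL peaks.

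The 3 libraries followed each other along both chromosomes at the scale of 1 Mb. On chromosome 10 Spearman's rho over 110 windows was 0.81 between OPC and iOL, 0.86 between OPC and mOL and 0.76 between iOL and mOL. On chromosome 12 it was 0.87, 0.91 and 0.90 over 54 windows, against 0.76, 0.85 and 0.77 over the 2572 windows of the other autosomes. At 100 kb it fell to 0.45, 0.56 and 0.49 on chromosome 10 and to 0.60, 0.72 and 0.65 on chromosome 12, against 0.48, 0.60 and 0.53 on the other autosomes, so chromosome 10 lay lower than elsewhere for each pair. Windows share base composition and how well reads can be placed in them, so these values are descriptions.

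Between OPC and mOL the balance of the lists was ordinary on both chromosomes, and the iOL list had a smaller part. Of the OPC and mOL peaks together, mOL made up 72.2% on chromosome 10 (exact 95% interval 71.4 to 73.0) and 73.0% on chromosome 12 (71.8 to 74.2). The other autosomes pooled had 72.0%, and single ones ran from 70.7% to 74.3%. Of OPC and iOL peaks together it made up 46.6% on chromosome 10 (45.4 to 47.8) and 45.7% on chromosome 12 (43.8 to 47.7), against 48.0% on the others pooled and a range of 46.7% to 50%. Of iOL and mOL peaks together, mOL made up 74.9% on chromosome 10 (74.1 to 75.6) and 76.3% on chromosome 12 (75.1 to 77.4), against 73.5% on the others pooled. The chromosome 12 value lay above the range of single autosomes, 72.3% to 74.97%.

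Some windows departed from that balance. Among windows with at least 60 OPC and mOL peaks, the mOL share on chromosome 10 was highest at chr10:31000001-32000000, where 88 mOL and 16 OPC peaks gave 84.6% (exact 95% interval 76.2 to 90.9). It was lowest at chr10:25000001-26000000, where 44 mOL and 26 OPC peaks gave 62.9% (50.5 to 74.1). In the first of these, 42 of the mOL peaks fell in the first 300 kb, against 5 OPC and 10 iOL peaks. The mOL peaks there had a median strength of 9.29, and 92.0% had no counterpart in another list. That share was 85.2% for all mOL peaks of chromosome 10 and 88.4% on the other autosomes. For chromosome 12 the lowest share, 62.5% (54.7 to 69.8), was at chr12:41000001-42000000, with 105 mOL and 63 OPC peaks. All of its 10 windows of 100 kb held at least 5 OPC and 7 mOL peaks. At the other extreme stood chr12:35000001-36000000, with 63 mOL, 10 iOL and 6 OPC peaks. Its mOL peaks were weak, with a median strength of 7.11 and 1 of at least 20, and only 15.9% had a raised local background, against 80.0% in the window of the lowest share. These windows were picked as the extremes of 102 and 40, and the intervals cover counting error only.

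Peaks of both chromosomes were found in another library more often than peaks elsewhere. A peak counted as found if it overlapped a peak of the other list by at least 1 base. Of OPC peaks, 1076 on chromosome 10, or 30.7% (exact 95% interval 29.1 to 32.2), and 434 on chromosome 12, or 30.6% (28.2 to 33.1), were found in mOL, where 22.8% of all autosomal OPC peaks were. In iOL, 433 OPC peaks of chromosome 10, or 12.3%, and 150 of chromosome 12, or 10.6%, were found, with 9.33% over all autosomes. The interval of this last share on chromosome 12, 9.03 to 12.3%, holds the 9.12% of the other autosomes.

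Of iOL peaks, 437 on chromosome 10 (14.3%) and 150 on chromosome 12 (12.6%) were found in OPC, against 10.2% over all autosomes. In mOL, 606 (19.8%) and 245 (20.5%) iOL peaks were found, against 15.8%. Of mOL peaks, 1073 (11.8%) and 434 (11.3%) were found in OPC, against 8.86%, and 604 (6.62%) and 244 (6.35%) in iOL, against 5.65%. Chromosome 10 ranked first of the 20 autosomes in all of these shares but that of iOL peaks in mOL, where chromosome 12 was first. A denser chromosome also has more of its length in peaks: mOL peaks covered 3.96% of chromosome 10 and 3.42% of chromosome 12, against 2.64% of the others. How much of the sharing this coverage accounts for was not tested.

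Sharing rose steeply with strength, and the excess over other autosomes was smaller within classes of strength. OPC peaks of chromosome 10 were found in mOL in 11.3% of cases below a strength of 8, 36.7% from 12 to 20, 82.5% from 20 to 50 and 98.9% from 50 up. On the other autosomes the shares were 7.59%, 34.2%, 84.6% and 98.6%. With the classes weighted as on the other autosomes, the share of OPC peaks found in mOL came to 24.7% on chromosome 10 and 23.6% on chromosome 12, against 22.1% elsewhere. For OPC peaks found in iOL it came to 9.06% and 7.25%, against 9.12%, so the excess was gone on chromosome 10 and turned into a deficit on chromosome 12. For mOL peaks it came to 8.81% and 8.04% in OPC, against 8.61%, and to 5.13% and 4.97% in iOL, against 5.57%. iOL peaks, like OPC peaks in mOL, kept an excess on both chromosomes, at 13.0% and 10.9% in OPC, against 9.89%, and 18.6% and 18.8% in mOL, against 15.5%.

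**Figure D5:**
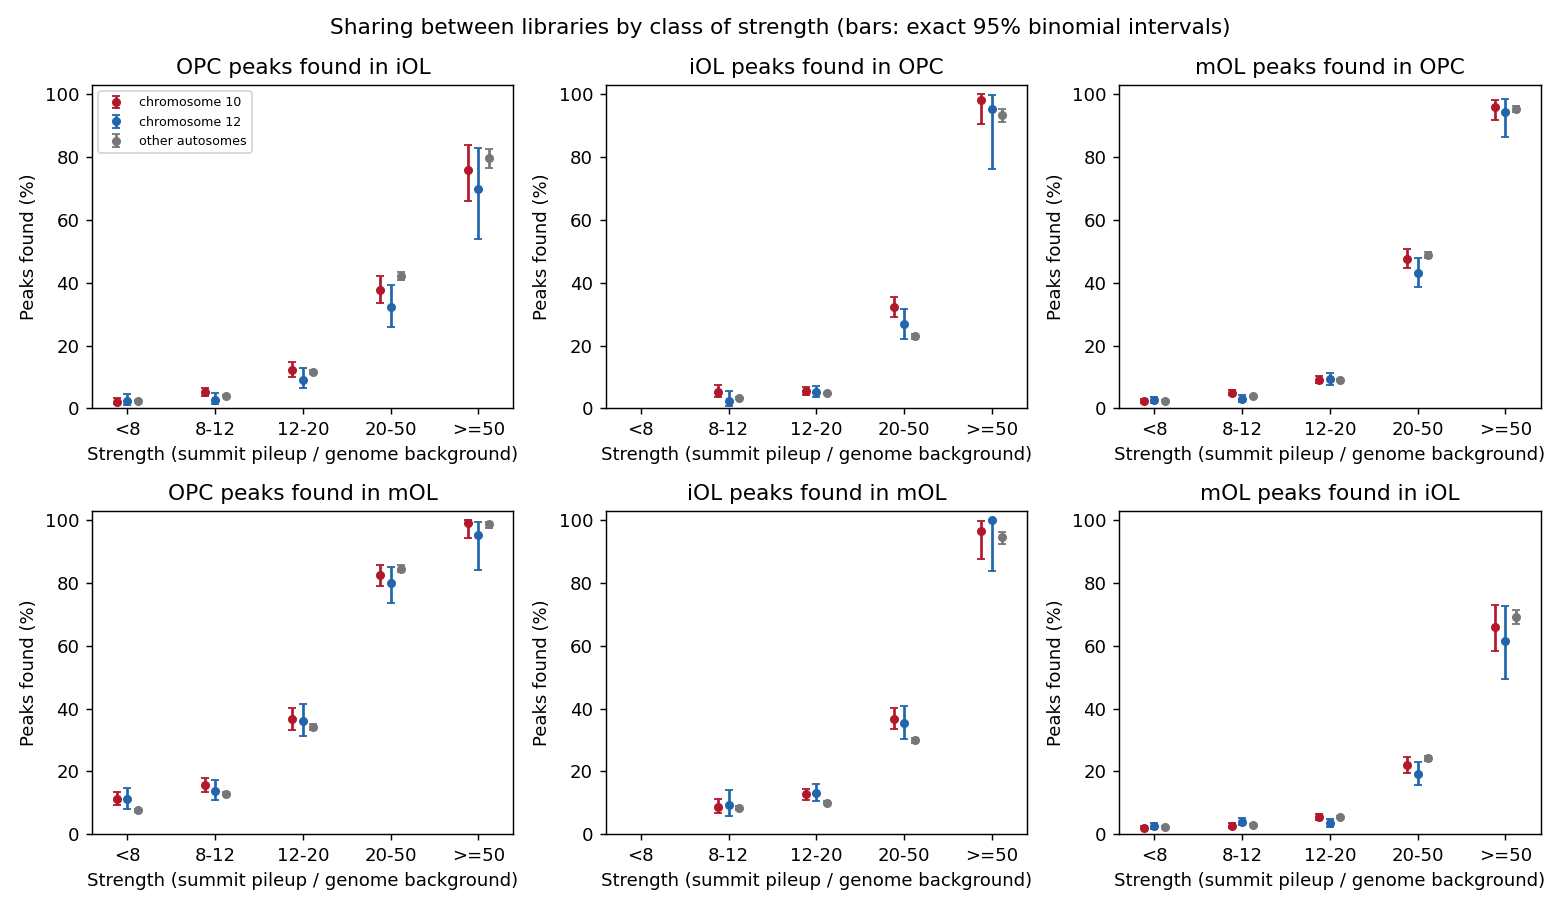
Share of peaks that overlap a peak of another library (vertical axis, percent) by class of strength (horizontal axis), 1 panel per ordered pair of libraries, for chromosomes 10 (red), 12 (blue) and the other autosomes (grey), with exact 95% intervals that cover counting error only. The 3 sets rise together, for OPC peaks found in mOL on chromosome 10 from 11.3% to 98.9%.

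Among strong peaks, chromosome 12 had the lower sharing with iOL. OPC peaks of a strength from 20 to 50 were found in iOL in 37.8% of cases on chromosome 10 (exact 95% interval 33.5 to 42.3) and in 32.4% on chromosome 12 (26.0 to 39.2), against 42.2% elsewhere. mOL peaks of the same class were found in iOL in 22.1% (19.6 to 24.7) and 19.2% (15.8 to 23.0), against 24.2%. In both cases the interval of chromosome 12 lay below the other autosomes and that of chromosome 10 reached their value. iOL peaks from 20 to 50 were found in OPC in 32.3% of cases on chromosome 10 (29.1 to 35.6), above the 23.0% elsewhere, and in 26.8% on chromosome 12 (22.2 to 31.8), whose interval holds that value.

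When overlapping peaks of the 3 lists were joined, chromosome 10 held 13878 regions and chromosome 12 held 5730. Regions with a peak in all 3 libraries numbered 343 on chromosome 10, or 3.10 per Mb, and 120 on chromosome 12, or 2.204 per Mb, against 1.52 per Mb on the other autosomes. These were the highest and second highest densities of the 20. As a share of regions they made up 2.47% (exact 95% interval 2.22 to 2.74) and 2.09% (1.74 to 2.50), against 1.67%. By this share chromosome 10 ranked 1 and chromosome 12 only 5, after chromosomes 7 (2.17%), 19 (2.16%) and 20 (2.12%) as well. Regions of OPC and mOL without iOL were 1.95 and 1.71 times as dense as elsewhere, at 726 and 313. Regions of OPC alone were 1.26 and 1.04 times as dense, and those of iOL alone 1.26 and 0.996 times. Regions of mOL alone were 1.39 and 1.19 times as dense. Shared regions of chromosome 12 were not all as enriched: its 35 regions of OPC and iOL without mOL were 1.10 times as dense as elsewhere.

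Regions of all 3 libraries were wide, with a median of 1096 bases on chromosome 10 and 1089.5 on chromosome 12, against 1060 elsewhere. Of the OPC peaks of chromosome 10 that overlapped both other lists, 96.7% had a raised local background. Of those found in no other list, 38.9% did. The same contrast held on the other autosomes, at 94.1% and 25.8%. The regions of all 3 libraries were spread unevenly: 5 lay in the block from 20000001 to 30000000 of chromosome 10 and 48 in that from 80000001 to 90000000. On chromosome 12 the first 10 Mb held 11 and the block from 40000001 to 50000000 held 30.

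The regions strongest in all 3 libraries were led on chromosome 10 by chr10:94158040-94159214, with 158 OPC, 52 iOL and 234 mOL fragments at the summit and strengths of 107, 96.3 and 128. Next was chr10:55424218-55425383, with an OPC strength of 155, an iOL strength of 126 and a mOL strength of 90.7. The third, chr10:65679026-65679699, was narrower, at 674 bases, with strengths of 89.6, 102 and 106. The leading region of chromosome 12 was chr12:53686097-53687637, with 168, 54 and 269 fragments and strengths of 114, 99.96 and 147. It lies within the last Mb covered by peaks. Region chr12:18026291-18026830 followed, with strengths of 100.4, 83.3 and 101, and then chr12:39572181-39573391, with 119, 72.2 and 133. The iOL values of these regions rest on 39 to 68 fragments. Which genes these regions touch is not given, since no gene models of rn5 were used here.

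The strongest peak of chromosome 10 was an OPC peak at chr10:14188901-14189870, with 280 fragments and a strength of 190. It was also held by mOL, at 145, and by iOL, at 66.6. The strongest on chromosome 12 was a mOL peak at chr12:26576177-26577323, with 304 fragments and a strength of 166, against 114 in OPC and 68.5 in iOL. All 18 peaks named as the 3 strongest of a library and chromosome overlapped peaks in both other lists.

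Peaks of a strength from 50 up were rarely those of a single list. The strongest OPC peak with no overlapping peak lay at chr10:86486699-86487199, with 136 fragments and a strength of 92.3, but a mOL peak lay 63 bases away. The strongest of mOL on chromosome 12, chr12:32432290-32433033, was more isolated: it had 111 fragments and a strength of 60.7, and the nearest OPC and iOL peaks were 10.3 and 67.5 kb away. On chromosome 10 the strongest of mOL alone was chr10:17121314-17122097, with 105 fragments and a strength of 57.4. The strongest iOL peaks found in no other list had strengths of 55.5, at chr10:90026551-90026937, and 42.6, at chr12:18525878-18526252, on 30 and 23 fragments. Of the peaks from 50 up, 1.05% of OPC, 1.79% of iOL and 2.89% of mOL peaks on chromosome 10 were of 1 list, and 4.65%, 0% (of 21) and 5.48% on chromosome 12. On the other autosomes these shares were 0.69%, 2.56% and 3.47%. From 20 to 50, peaks of 1 list were common here as elsewhere. They made up 14.6%, 56.9% and 46.7% on chromosome 10 and 17.2%, 60.2% and 49.5% on chromosome 12. The other autosomes had 13.0%, 66.1% and 45.7%.

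Where 2 libraries had a peak in the same region, their strengths were compared, and a ratio past 2-fold was counted. Between OPC and mOL the chromosomes were like the rest. Strength in mOL was at least 2-fold that in OPC in 172 of 1069 regions of chromosome 10 (16.1%) and in 75 of 433 of chromosome 12 (17.3%), against 17% over all autosomes. It was at least 2-fold lower in 32 (2.99%) and 16 (3.70%), against 3.47%.

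Ratios that involve iOL differed more, on chromosome 10 in all 4 counts and on chromosome 12 in 1. Strength in iOL was at least 2-fold that in OPC in 68 of 444 regions of chromosome 10, or 15.3% (exact 95% interval 12.1 to 19.0), and in 19 of 155 of chromosome 12, or 12.3% (7.54 to 18.5), against 19.7% over all autosomes. It was at least 2-fold lower in 34 (7.66%, 5.36 to 10.5) and 10 (6.45%, 3.14 to 11.5), against 5.16%. Strength in mOL was at least 2-fold that in iOL in 80 of 620 regions (12.9%, 10.4 to 15.8) and in 32 of 249 (12.9%, 8.96 to 17.7), against 9.42%. It was at least 2-fold lower in 82 (13.2%, 10.7 to 16.1) and 41 (16.5%, 12.1 to 21.7), against 18.9%. In these last 3 counts the interval of chromosome 12 held the share over all autosomes. A shared region needs a summit of at least 6 fragments in iOL, a strength of 11.1, which limits how low an iOL value can be. These comparisons share the iOL library, so their directions are not independent.

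Some single regions had very unequal strengths in OPC and mOL. They were picked as extremes, so whether their ratios exceed counting error was not tested. At chr12:42016187-42017398 the OPC library had 133 fragments and mOL 41, strengths of 90.2 and 22.4 and a ratio of mOL over OPC of 0.25 (exact 95% interval 0.17 to 0.35). At chr10:64327270-64328725 there were 134 and 45 fragments, a ratio of 0.27 (0.19 to 0.38). In the other direction, chr10:103566568-103567809 had 21 OPC and 133 mOL fragments, a ratio of 5.10 (3.21 to 8.52), and chr12:38822747-38824031 had 25 and 141, a ratio of 4.54 (2.96 to 7.26). Neither of these last 2 had an iOL peak.

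For iOL against OPC the regions most in favour of iOL were chr10:15433893-15434609, with 42 iOL and 30 OPC fragments and a ratio of 3.82 (exact 95% interval 2.33 to 6.32), and chr12:40850039-40850677, with 62 and 47 and a ratio of 3.60 (2.42 to 5.38). The first had a strength of 41.0 in mOL and the second 67.8, between those of the other libraries. In the other direction, chr10:14031487-14032519 had 20 iOL and 191 OPC fragments, a ratio of 0.29 (0.17 to 0.45), and chr12:27419976-27421609 had 21 and 104, a ratio of 0.55 (0.33 to 0.89). At chr12:48968501-48970066 iOL was highest of the 3, at 51.8 against 18.3 in OPC and 11.5 in mOL, on 28, 27 and 21 fragments. All of these were picked as the extremes of 44 to 703 regions with at least 20 fragments in both libraries, which makes them look more unequal than a new measurement would. Fragments are not shown to be independent molecules, and the intervals cover counting error only.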

How the data were processed

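Peak lists of 3 CUT&Tag libraries, 1 per stage, were analysed. The submitters' processing notes name Bowtie2 2.4.4, MACS2 2.2.7.1, deepTools 3.5.1 and build rn5 without their roles. The sources used do not say whether a control library entered, what was pooled (peak names hold the word pool) or how duplicates were handled. The deposited columns were each peak's score, its fold enrichment over the local background (a linear ratio), −log10 p and −log10 q, and the summit offset, in the narrowPeak layout. The authors' lists held no −log10 p under 5.

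From the deposited fold and p, each peak's summit pileup and background were recovered, with a pseudocount of 1 and a tolerance of 0.001 in −log10 p. This succeeded for all members, and for 100% of 3000 simulated peaks per library. Peaks were placed by summit in full windows of 1 Mb and 100 kb, and found in another list if they overlapped by at least 1 base. Chromosomes were compared with the other 18 autosomes by values and ranks, with exact Clopper-Pearson 95% intervals that cover counting error only. No test between stages was made.

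The chromosomes, classes and thresholds were chosen with earlier results of these data known, and the split by local background, the weighting by class and the removal of empty windows after these values were seen. Positions named are, per chromosome and library, the windows with most and fewest peaks, longest gaps, strongest and widest peaks, extreme mOL shares, strongest regions of all 3 libraries and extreme ratios. Genes were not assigned and no sequence is printed, since rn5 sequence and annotation were not used here. Alternatives were stricter q, fold or strength, equal list lengths, other overlap rules, occupied length and a median reference. Python 3.11.15, numpy 2.4.6, pandas 2.3.3, scipy 1.17.1 and matplotlib 3.10.9 were used.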

Additional observations from a re-analysis of the deposited data

How the results depend on the processing

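No paired analysis was possible because every stage was represented by a single library. Of 228 alternatives to the main ratios and shares, 140 stayed within the counting interval of the value reported, 79 moved beyond it and 9 turned to the other side of 1 from a value whose interval left 1 out. A further 2 shares, both of OPC peaks in iOL on chromosome 12 (0.844 and 0.795, among the 79), crossed 1 from a value whose interval held it. The median ratio of mOL over iOL strength at shared regions on chromosome 12, among the 140, did so too. It rose from below 1 to above 1 with peaks of a −log10 q of at least 5. No density ratio fell to 1 or below. Values below are ratios to the other autosomes.

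Peaks of a −log10 q of at least 5 gave densities of 1.52 (OPC) and 1.53 (mOL) on chromosome 10 and 1.304 (OPC) and 1.303 (mOL) on chromosome 12. Median gaps were 0.687, 0.748 and 0.798 (OPC, iOL, mOL) on chromosome 10 and 0.659, 0.752 and 0.815 on chromosome 12. Median OPC width was 1.03 on both. Median strength was 1.10 (iOL) and 1.11 (mOL) on chromosome 10 and 1.13 (OPC) on chromosome 12, and the mOL share of OPC and mOL peaks on chromosome 10 was 74.0%. A fold of at least 5 gave densities of 1.48 (OPC) and 1.52 (mOL) on chromosome 10 and 1.27 and 1.296 on chromosome 12, and widths of 1.04 and 1.021, and 1.04 and 1.04. Gaps were 0.713 (OPC) and 0.796 (mOL) on chromosome 10 and 0.703 (OPC) on chromosome 12. On chromosome 10 the share of OPC peaks in mOL was 1.32 and of mOL peaks in OPC 1.28, and the mOL share on chromosome 12 was 71.4%.

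Lists of equal length gave densities of 1.53 (OPC) and 1.70 (mOL) on chromosome 10 and 1.26 and 1.49 on chromosome 12. Gaps were 0.713 (OPC) and 0.728 (mOL) on chromosome 10 and 0.730 (mOL) on chromosome 12, and mOL widths 1.0197 and 1.04. Shares were 1.40 (iOL in mOL) and 1.23 (mOL in OPC) on chromosome 10, and 1.17 (mOL in OPC) and 1.002 (mOL in iOL) on chromosome 12. Length as occupied 100 kb windows gave densities of 1.31, 1.23 and 1.32 on chromosome 10 and 1.28 (mOL) on chromosome 12. The median autosome as reference gave mOL densities of 1.38 and 1.18 and a share of mOL peaks in OPC of 1.47 on chromosome 10. With the authors' fold as strength, medians were 1.05, 0.992 and 1.017 on chromosome 10 and 1.08 (OPC) and 1.0013 (mOL) on chromosome 12.

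With 200 bases at each summit, shares were 1.37 (iOL in mOL, chromosome 10), 1.52 (OPC in mOL, chromosome 12) and 1.44 (mOL in OPC, chromosome 12). An overlap of 50% of both peaks gave 1.46 (OPC in mOL), 1.32 (iOL in OPC), 1.17 (iOL in mOL) and 1.10 (mOL in iOL) on chromosome 10. A strength of at least 20 gave densities of 2.396, 1.51 and 2.32 on chromosome 10 and 2.05, 1.29 and 2.17 on chromosome 12, and mOL shares of 67.2% and 69.1%. Sharing was then 0.942 (OPC in iOL), 1.03 (OPC in mOL), 1.42 (iOL in mOL), 1.06 (mOL in OPC) and 0.919 (mOL in iOL) on chromosome 10. On chromosome 12 it was 0.844 (OPC in iOL), 0.977 (OPC in mOL), 0.920 (mOL in OPC) and 0.804 (mOL in iOL). With classes of strength weighted as elsewhere, chosen after seeing the data, it was 0.993 (OPC in iOL), 1.117 (OPC in mOL), 1.32 (iOL in OPC), 1.022 (mOL in OPC) and 0.921 (mOL in iOL) on chromosome 10. On chromosome 12 it was 0.795 (OPC in iOL), 1.07 (OPC in mOL), 0.934 (mOL in OPC) and 0.892 (mOL in iOL). The weighting evens out the mix of the classes only, and strength can still differ within a class. The cause of these shifts was not tested. The lowest strength that could be called, 11.1 in iOL against 6.11 and 5.47, limits what its list can hold.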
